A study of Mesocricetus auratus with 10 samples.

Results

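Genes of iron storage, iron transport and haem breakdown were followed in a study of dietary fat and the liver, in male golden hamsters (Mesocricetus auratus) on a high fat diet (HFD). The genes were taken by name: every non-control probe that the array's design names FTH1, TF, TFRC, TFR2, HAMP, SLC40A1, STEAP3, STEAP4, BLVRA or BLVRB. Of the 10 names 9 were present, with 41 of the array's 116452 probes and 76 spots per array. No probe carried the name HAMP, so hepcidin was not analysed here. All 41 probes passed the filter on dim spots, and 38 of them were well above background in both RNAs on all 20 arrays.

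Liver RNA of each of 10 HFD animals was hybridised on 2-colour arrays against 1 pool of liver RNA from 10 hamsters on a standard diet (STD). Each animal was measured on 2 arrays, once with its RNA in Cy5 (red) and once in Cy3 (green), and the labels give both channels as male liver. The sources used here do not give age, strain, diet composition or feeding time. Values are log2 ratios, HFD liver over STD pool, as the mean of an animal's 2 arrays, and a gene is described by its brightest probe unless a probe number is given. Because the STD animals were measured as 1 pool, the tests leave out their own spread, and an adjusted p states how far the 10 HFD animals agreed against this pool. Which way a ratio runs was taken from the dyes given in the array names.

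Iron enters hepatocytes mainly bound to transferrin (TF), the iron carrier of plasma, through transferrin receptor (TFRC). Ferric iron is reduced by the STEAP metalloreductases, stored in ferritin, whose heavy chain is FTH1, and leaves the cell through ferroportin (SLC40A1), the known exporter of iron. TFR2 takes part in the sensing of transferrin-bound iron that sets the output of hepcidin, the hormone that removes ferroportin from the cell surface. Haem is opened by haem oxygenase to biliverdin, which the biliverdin reductases BLVRA and BLVRB reduce, BLVRA making the bilirubin of adult bile.

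The probes are 60-base oligos, and the sequences that bear on the results are given 5′ to 3′ as the array files print them. FTH1 has 4 probes on 3 assembled transcripts. Probe 2 holds the stem and loop known as the iron-responsive element, the RNA hairpin to which iron regulatory proteins bind, and only this window of it is shown, with the bulged C, both arms of the stem and the loop in capitals. Probe 4 and an unnamed probe share 39 bases on the same strand, and the last 19 bases of that unnamed probe are the reverse complement of the end of probe 1. In these lines the capitals mark the shared stretches, which place probe 1 on the strand opposite to probe 4.
FTH1 probe 2, element: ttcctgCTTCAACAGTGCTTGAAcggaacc
FTH1 probe 4: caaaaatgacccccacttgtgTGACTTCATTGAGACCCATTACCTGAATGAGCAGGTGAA
Unnamed probe: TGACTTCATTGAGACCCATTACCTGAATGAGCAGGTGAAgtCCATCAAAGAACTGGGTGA
FTH1 probe 1: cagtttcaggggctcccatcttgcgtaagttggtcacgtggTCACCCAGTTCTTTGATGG

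The motif searched, on both strands, was a C, then any 5 bases, then CAGTGN, and no other motif was searched that could overlap it. As printed it lies in 2.22% of all 116452 probes, and on the reverse strand in 2.02%. The further condition that the 5 bases before the loop pair with the 5 after it left 5 probes as printed, 0.00429% of all, and 3 on the reverse strand. Among the 41 probes described here the paired form was found in FTH1 probe 2 alone, while the bare motif was in 4 as printed and in 2 on the reverse strand. An unnamed probe that shares 41 bases with FTH1 probe 2 also holds the paired form. A match describes these letters and not a site of binding.

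Most of the 9 genes differed between HFD liver and the pool, though mostly by small amounts. By limma on the brightest probe of each gene, STEAP4, FTH1 and BLVRA were higher, while SLC40A1, TF, TFRC, BLVRB and STEAP3 were lower. TFR2 was not called. These 3 higher and 5 lower genes stand against a background in which 60.3% of the 13827 genes tested were called, 31.4% higher and 28.9% lower. The strand of the probes relative to their genes is not stated. Transferrin was lower by its name TF but higher by its other name TRF, as described below. The median of the 9 mean ratios was -0.12, against 0.01 over all genes, and the median size was 0.20 against 0.11. Of all genes 31.5% had the same sign in all animals, as 4 of the 9 did (STEAP4, FTH1, BLVRA and BLVRB). STEAP4 was the one gene of the 9 called and changed at least 2-fold, as 0.745% of all genes were. Over the 41 probes, 9 were higher, 18 lower and 14 not called, where 59.2% of 61688 named probes were called, 31% higher and 28.2% lower. The calls of TF and TFRC are fragile: without animal 5, 7, 8, 9 or 10 both were lost and 3 genes were lower in place of 5.

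**Figure D1:**
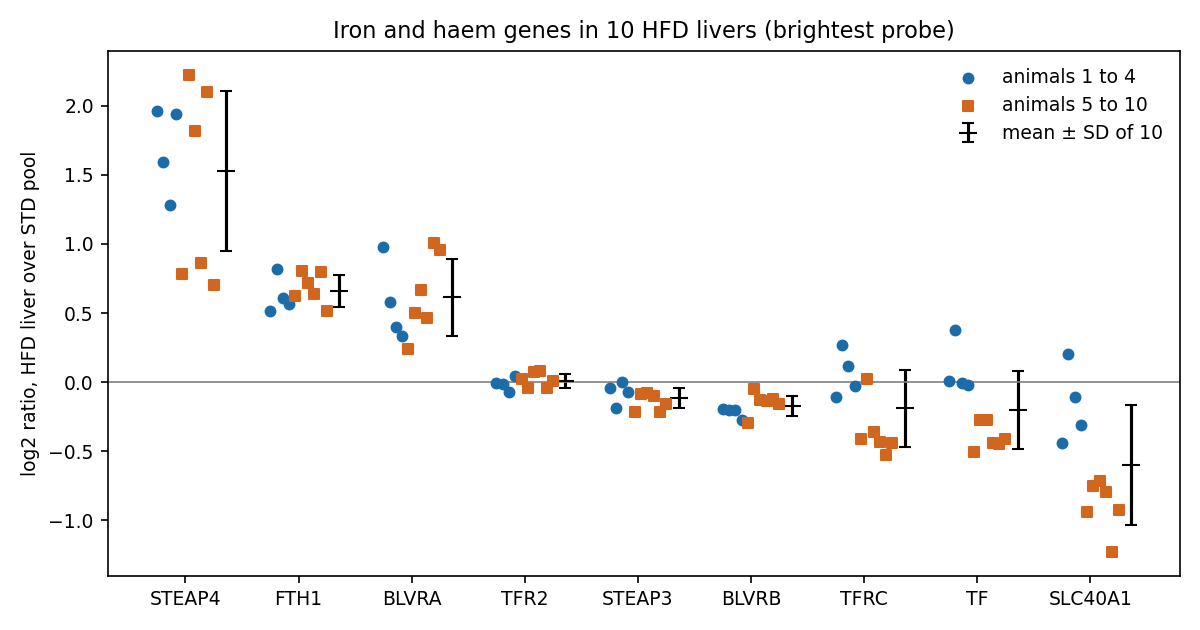
Log2 ratio of HFD liver over the STD pool (vertical axis) for the brightest probe of each of the 9 genes, with 1 point per animal (mean of its 2 arrays), circles for animals 1 to 4, squares for animals 5 to 10, and the mean ± SD of all 10 beside them. All 10 points lie above 0 for STEAP4, FTH1 and BLVRA and below 0 for BLVRB, while for SLC40A1 and TF every square lies below every circle.

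The arrays were not of one kind. For animals 5 to 10, the 6 arrays that carried HFD RNA in Cy3 correlated with each other across genes at a median r of 0.88, the other 14 among themselves at 0.63, and the 6 with the 14 at 0.49. In a fit on the 14 arrays, which took the dye as a covariate and blocked on the animal, 43.2% of genes were called, against 61.6% for the same fit on all 20. A mean given for the 14 arrays is the estimate of that fit and not their plain average. In it the 2 dye orientations count about equally, although HFD in Cy3 is left with the arrays of animals 1 to 4 only. Of the 9 genes, 3 were higher and 2 lower on the 14 arrays. By arrays with HFD in Cy5 only, 3 were higher and 4 lower (51.8% of all genes were called), and with HFD in Cy3 only, 3 and 3 (63.2%). The liver label was borne out, with all 10 measured hepatocyte markers well above background in both RNAs on all arrays. Of these markers 8 were lower and none higher in HFD liver (list mean per animal from -0.78 to -0.27), of 10 macrophage markers 6 were higher and 2 lower (0.04 to 0.47), and of 8 red cell precursor markers none was higher and 3, all haemoglobin chains, were lower (-0.45 to 0.22). None of 3 neutrophil markers was called by limma (1 at an unadjusted p under 0.05), 4 of 10 endothelial markers were higher and 2 lower, 4 of 10 stellate cell markers were higher and 2 lower, and 1 of 6 cholangiocyte markers was lower. Over all genes 31.4% were higher and 28.9% lower. In bulk liver RNA, fewer cells of a type and less RNA per cell cannot be told apart. The part of the marker shifts in the ratios below was not tested.

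Ferritin heavy chain rose in every HFD liver. FTH1, by probe 4, ranged from 0.51 in animal 10 over a median of 0.63 to 0.82 in animal 2. The lowest values, those of animals 1 and 10, were still far above the pool, and animals 1 to 4 and 5 to 10 overlapped. The mean of 0.66 ± 0.12 (SD, n = 10) is a 1.58-fold rise (limma adjusted p = 1.31e-08), and on the 14 arrays it was 0.57.

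The size of the FTH1 rise depended on the dye. With HFD RNA in Cy5 probe 4 read 0.87 to 1.41 (mean 1.07), and with HFD RNA in Cy3 it read -0.05 to 0.49 (mean 0.25), so that the values of the orientations did not overlap. The difference within an animal, Cy5 minus Cy3, was 0.82 ± 0.23. The rule that chose the genes already names this difference of FTH1, so it is given as a description with no test. It was present in both sets of animals, at 1.17 against 0.09 in animals 1 to 4 and 1.01 against 0.36 in animals 5 to 10. Such a difference was called for 6 of the 9 genes, FTH1 among them, where 48.8% of all genes were called for it. It was higher with HFD in Cy5 for 2, FTH1 and STEAP3 (25.8% of all genes), and lower for 4 (23%). At the level of probes it was called for 17 of 41, with 3 of FTH1 counted, against 44.7% of all named probes. Because the rule already names FTH1, these counts too are given only as a description. For FTH1 the scanner software's processed signals gave a smaller difference of 0.33, and median centring without loess gave 1.68, while the FTH1 mean stayed at 0.65 and 0.57.

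The dye difference was not the same across the FTH1 probes. Probe 3, on the same transcript as probe 4, had a mean of 0.60 ± 0.11 and a dye difference of 0.24. Probe 2, with the iron-responsive element, had a mean of 0.56 ± 0.09, at 0.55 with HFD in Cy5 and 0.58 with HFD in Cy3, a difference of -0.04. Thus 3 of the 4 FTH1 probes gave a mean rise within 0.56 to 0.66, with dye differences from -0.04 to 0.82. The 2 unnamed probes that share bases with probes 4 and 2 read 0.62 ± 0.12 and 0.52 ± 0.08, with the first at 0.86 in Cy5 and 0.38 in Cy3 and the second at 0.49 and 0.56.
Of all named probes, 30 were at least as bright on the array as FTH1 probe 4, itself counted, and all 30 read higher with HFD in Cy5 (difference from 0.50 to 3.20, median 1.05), against 45.1% of all named probes tested and a median of -0.02. They include 6 probes of ALB and 4 of TTR, both plasma protein genes, and 2 of HP, the haemoglobin scavenger described below. The part of spot brightness in the dye difference was not tested.

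Probe 1 did not follow the other FTH1 probes. Its ratios ran from -0.22 in animal 10 to 0.34 in animal 2, with a mean of 0.07 ± 0.18 that was not called (limma adjusted p = 0.239). On the arrays with HFD in Cy3 it read 0.27 in animals 1 to 4 and -0.33 in animals 5 to 10, with no overlap. On the arrays with HFD in Cy5 the 2 sets read 0.22 and 0.25. This is the probe that the shared stretches place on the strand opposite to probe 4, and whether it reports FTH1 mRNA was not tested.

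**Figure D2:**
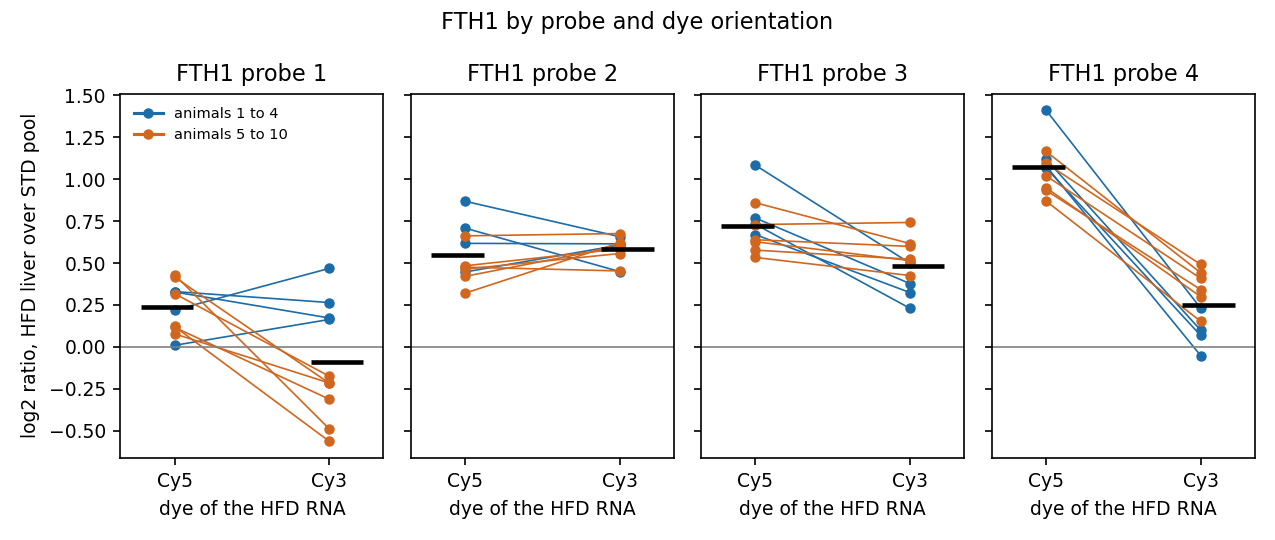
Log2 ratio of HFD liver over the STD pool (vertical axis) for the 4 FTH1 probes, with the HFD RNA in Cy5 on the left and in Cy3 on the right of each panel; lines join the 2 arrays of an animal and black bars are means of 10. Probe 4 falls from a mean of 1.07 to 0.25, probe 2 stays at 0.55 and 0.58, and probe 1 splits by set of animals in Cy3.

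Transferrin gave opposite results under its 2 names. The name TF has 2 probes, and 3 further probes are named TRF, the mouse symbol of the same gene. TRF lies outside the set as chosen and was added after its values were seen. TF probe 2 holds a stop triplet in each of its 3 reading frames as printed, with the first of each frame in capitals here, while 1 frame is open on the reverse strand. TRF probe 3 is open in all 3 frames as printed.
TF probe 2: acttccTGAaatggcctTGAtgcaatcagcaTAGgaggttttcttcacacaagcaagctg
TRF probe 3: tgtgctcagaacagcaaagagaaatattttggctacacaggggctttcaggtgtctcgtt
Of 67053 named probes, 4.19% are closed in every frame as printed and open in reverse, and 8.92% the other way round. The files do not state the strand of a probe relative to its gene, and no transcript sequence was at hand to set it.

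By its name TF the gene ranged from -0.50 in animal 5 over a median of -0.27 to 0.38 in animal 2. All 6 of animals 5 to 10 were at -0.27 or lower, and all 4 of animals 1 to 4 lay between -0.02 and 0.38. The mean of -0.20 ± 0.28 is a 1.15-fold fall (limma adjusted p = 0.0367), with 2 of 10 animals above 0. With HFD in Cy5 the sets of animals read -0.31 and -0.41, but with HFD in Cy3 animals 1 to 4 read 0.48 and animals 5 to 10 read -0.37. In the fit on the 14 arrays the estimate was 0.05 and was not called (adjusted p = 0.446), with HFD in Cy3 there given by animals 1 to 4 alone. The call thus depends on the arrays used and on their weight.
By the name TRF it rose in 10 of 10 animals, from 0.07 in animal 8 to 0.55 in animal 2. The mean was 0.34 ± 0.16 (limma adjusted p = 3.95e-05), it was 0.37 on the 14 arrays, and all 3 TRF probes were called higher. TF probes and TRF probes thus disagree in direction, and which of them reports transferrin mRNA was not tested.

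Ferroportin read lower by its probes, and the size of the fall hung on 1 set of arrays. Its 6 probes come from a single transcript, and probe 3, the brightest, is closed in every frame as printed and open in 2 frames on the reverse strand. The strand of probe 3 relative to its gene is not stated, and whether it reports ferroportin mRNA was not tested. The capitals again mark the first stop triplet of each frame.
SLC40A1 probe 3: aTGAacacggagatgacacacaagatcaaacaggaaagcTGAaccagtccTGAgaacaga
Animals 5 to 10 ranged from -1.23 (animal 9) to -0.71, and animals 1 to 4 from -0.44 to 0.21 (animal 2), with no overlap. The mean of -0.60 ± 0.43 is a 1.52-fold fall, with 1 of 10 animals above 0 (limma adjusted p = 5.89e-04). With HFD in Cy3, animals 5 to 10 (the 6 arrays) had a mean of -1.28, from -1.93 to -0.97. It was -0.51 on their arrays with HFD in Cy5, and -0.31 and -0.01 on the arrays of animals 1 to 4 with HFD in Cy5 and in Cy3. On the 14 arrays without those 6 the fall was -0.24 and still called (adjusted p = 0.00724). All 6 probes were called lower, with means from -0.69 to -0.32. On the 6 arrays probe 2 read -1.43, against -0.47 with HFD in Cy5 of the same animals. Probe 6 was the exception, at -0.40 on the 6 arrays and -0.55 with HFD in Cy5.

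The receptor of transferrin was lower by a small margin. TFRC has 5 probes on 1 transcript, and the brightest ranged from -0.53 in animal 9 to 0.27 in animal 2, with 3 of 10 animals above 0. The mean was -0.19 ± 0.28 (limma adjusted p = 0.0433), and 0.06, not called, on the 14 arrays. With HFD in Cy3, animals 1 to 4 read 0.30 and animals 5 to 10 read -0.52. With HFD in Cy5 both sets were near -0.18 and -0.19. The means of its other 4 probes lay from -0.25 to -0.17 and none was called. TFRC probe 1 too is closed in every frame as printed and open in 1 in reverse.

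**Figure D3:**
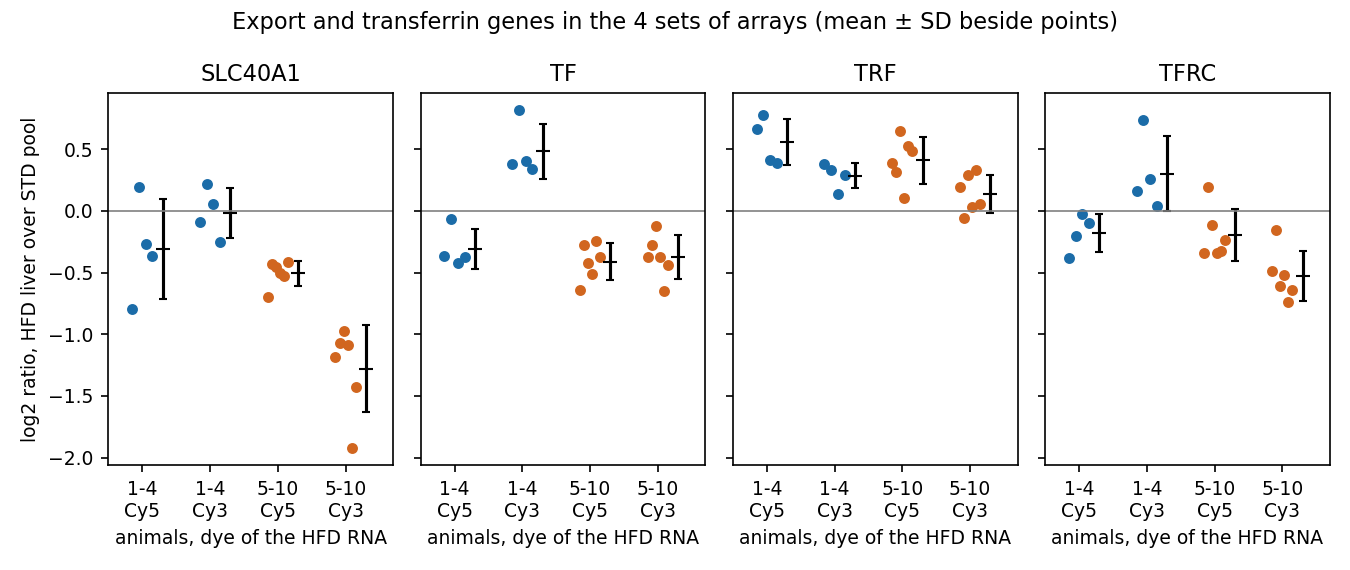
Log2 ratio of HFD liver over the STD pool (vertical axis) of SLC40A1, TF, TRF and TFRC in the 4 sets of arrays, given by animals (1 to 4, 5 to 10) and by the dye of the HFD RNA; points are single arrays and bars the mean ± SD of 4 or 6. SLC40A1 falls to -1.28 in animals 5 to 10 with HFD in Cy3, TF is at 0.48 in animals 1 to 4 with HFD in Cy3 and below 0 elsewhere, and TRF keeps a mean above 0 in every set.

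TFR2, the sensor, was the one gene of the 9 that was not called. Its ratios lay between -0.07 and 0.08, with 5 of 10 animals above 0 and a mean of 0.01 ± 0.05 (limma adjusted p = 0.824, 95% interval -0.04 to 0.06). None of its 5 probes was called by limma (means -0.05 to 0.01), nor had any an unadjusted p under 0.05. Another 5 probes bear the mouse symbol TRFR2, and 2 of those have the same 60 bases as a TFR2 probe. The identical pairs read -0.05 and -0.02 in one case and -0.05 and -0.08 in the other. The brightest TRFR2 probe, of another sequence, was called lower (mean -0.17 ± 0.15, adjusted p = 0.00463) but not on the 14 arrays (-0.09, adjusted p = 0.145). TRFR2 was likewise added after its values were seen.

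STEAP4, a metalloreductase of iron and copper that is also known to respond to inflammation and feeding, had the largest rise of the set. By probe 3 its ratios were 1.96, 1.60, 1.28, 1.94, 0.78, 2.23, 1.82, 0.86, 2.10 and 0.70 in animals 1 to 10. Animals 5, 8 and 10 stood below the other 7, all of which were at 1.28 or above. The mean of 1.53 ± 0.58 is a 2.88-fold rise (limma adjusted p = 2.78e-06), and the SD between animals was larger than that of 99.7% of genes. The rise was 1.58 on the 14 arrays, 1.37 with HFD in Cy5 and 1.68 with HFD in Cy3.
The other 2 STEAP4 probes come from another assembled transcript and gave smaller means, which differed between the sets of arrays. Whether the assembled transcripts are parts of 1 mRNA was not tested, nor was the strand of these probes.
STEAP4 probe 1: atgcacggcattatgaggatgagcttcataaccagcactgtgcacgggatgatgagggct
STEAP4 probe 2: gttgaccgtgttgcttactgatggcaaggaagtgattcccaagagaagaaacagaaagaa
STEAP4 probe 3: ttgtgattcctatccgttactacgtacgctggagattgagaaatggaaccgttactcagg
Probe 1 had a mean of 0.66 ± 0.47 and probe 2 of 0.71 ± 0.47 (adjusted p = 4.21e-04 and 2.71e-04), and the mean over all 3 probes was 0.97. Animals 5, 8 and 10 were again the lowest, at -0.02, 0.05 and 0.07 by probe 1 and 0.14, 0.06 and -0.00 by probe 2, where the other 7 were at 0.62 or above. The same 3 animals were the lowest by every STEAP4 probe, and the sequences share no stretch of 18 bases. All 3 probes were read from the same labelled RNA on the same arrays, so they are not independent measurements of the animals. With HFD in Cy3, probe 1 read 1.36 in animals 1 to 4 but 0.10 in animals 5 to 10, and probe 2 read 0.06 in animals 5 to 10. With HFD in Cy5 they read 0.78 and 0.85 in animals 1 to 4 and 0.68 and 0.83 in animals 5 to 10. Their smaller means thus include values near 0 on the 6 arrays that stood apart, where probe 3 read 1.57.

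The named genes closest to STEAP4 over the 10 animals, by the mean absolute difference of the ratios, were UBE2L6, a ubiquitin-family conjugating enzyme, at 0.40, the carboxylesterase gene CES1F at 0.41 and the methyltransferase gene INMT at 0.41. Their own means were 1.30, 1.77 and 1.56. This measure picks genes of a similar mean rather than a similar order of animals: as a description over the same 10 animals and arrays, their Pearson r with STEAP4 was 0.47, 0.36 and 0.39.

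STEAP3, the ferrireductase of the transferrin cycle, fell slightly. Its brightest probe ranged from -0.22 in animal 5 to 0.00 in animal 3, with a mean of -0.12 ± 0.08 (limma adjusted p = 0.00227). On the 14 arrays the mean was -0.07 and not called (adjusted p = 0.114), and with HFD in Cy5 alone it was -0.05 (adjusted p = 0.341). Of its 9 probes on 2 assembled transcripts, 5 were called lower, none higher, with means from -0.31 to 0.07. Probe 2 fell more, by 0.31 on the log2 scale, and was below 0 in all animals (-0.57 to -0.20).

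The biliverdin reductases went opposite ways. BLVRA rose in all 10 animals, from 0.24 in animal 5 over a median of 0.54 to 1.01 in animal 9. Animals 1, 9 and 10 were near 1 and the other 7 at 0.67 or below. The mean of 0.61 ± 0.28 is a 1.53-fold rise (limma adjusted p = 1.67e-05), and 0.57 on the 14 arrays. All 3 probes were higher (means 0.45 to 0.67), and each rose more with HFD in Cy3, the brightest at 0.78 against 0.45. Processed signals of the software gave 0.86.
BLVRB, which reduces flavins as well as biliverdin, was below 0 in all 10 animals, from -0.30 in animal 5 to -0.05 in animal 6. Its mean of -0.18 ± 0.07 is a 1.13-fold fall (limma adjusted p = 8.09e-05), and it was -0.22 on the 14 arrays. All 4 BLVRB probes were lower (means -0.23 to -0.15), a small shift that was larger than the spread between animals. The brightest probe of each gene is given here.
BLVRA probe 2: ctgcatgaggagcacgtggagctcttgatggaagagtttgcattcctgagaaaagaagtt
BLVRB probe 3: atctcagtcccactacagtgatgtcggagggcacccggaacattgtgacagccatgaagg

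**Figure D4:**
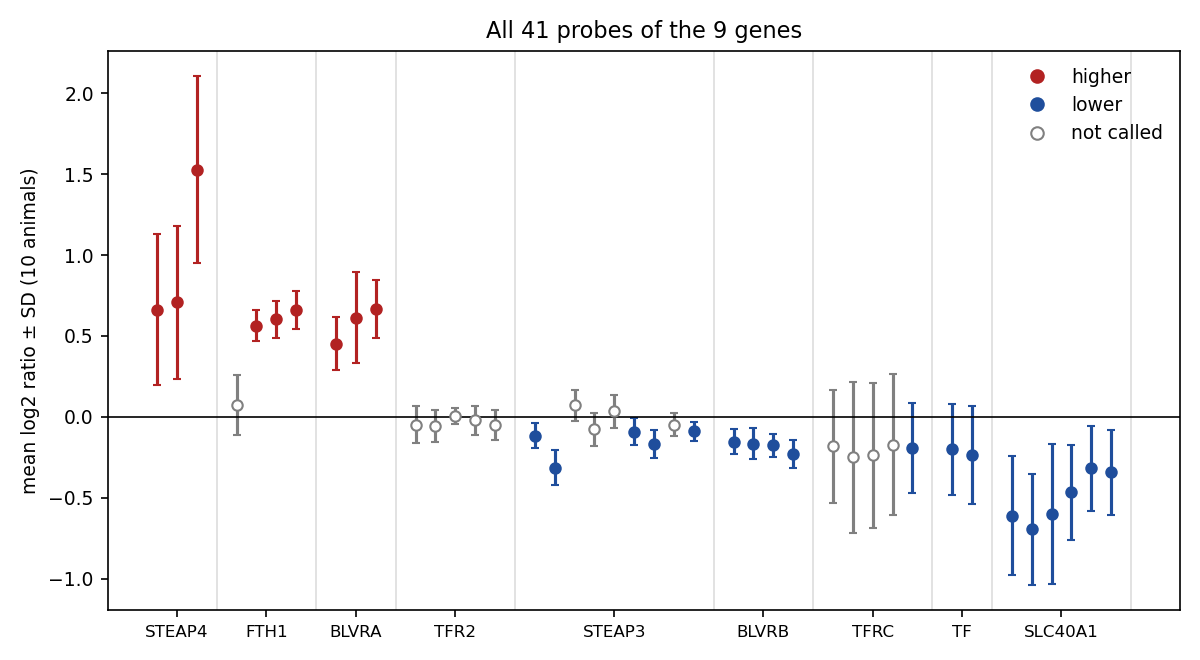
Mean log2 ratio ± SD over 10 animals (vertical axis) for all 41 probes, grouped by gene, red for probes called higher, blue for lower and open grey for not called. All probes of STEAP4 and BLVRA are higher and all of BLVRB, TF and SLC40A1 are lower. FTH1 probe 1, on the strand opposite to probe 4, lies near 0.

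The wider pathway moved in both directions. Of 90 listed genes of iron and haem handling 77 were measured, of which 19 rose, 28 fell and 30 were not called. That is 61.0% called, close to the 60.3% of all genes, and the median ratio was -0.03 against 0.01. The ferritin light chain had no tested probe. On the 14 arrays 18 rose and 19 fell.

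Of 6 measured genes of haem breakdown and bilirubin handling 3 rose, 1 fell and 2 were not called, so that 66.7% were called against 60.3% of all genes. HMOX1, the inducible haem oxygenase, rose by 0.27 ± 0.23 (limma adjusted p = 0.00217), was above 0 in 9 of 10 animals and had all 4 probes higher. It read 0.45 with HFD in Cy5 and 0.10 with HFD in Cy3. POR, the reductase that feeds it electrons, rose by 0.39 ± 0.14 with all 12 probes higher. UGT1A1, which conjugates bilirubin, rose by 0.59 ± 0.06, from 0.47 to 0.67. Its 7 probes disagreed, with 3 higher and 4 lower and a median of -0.45, so that the direction given depends on the probe.

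Of 11 measured genes of haemoglobin and haem scavenging 1 rose, 5 fell and 5 were not called, so that 54.5% were called against 60.3% of all genes. CD163, the macrophage receptor for haptoglobin and haemoglobin complexes, fell by 1.25 ± 0.32 (limma adjusted p = 1.13e-07), from -1.68 to -0.69, and has 1 probe. HP, haptoglobin, had a mean of -0.56 ± 0.39 (adjusted p = 3.86e-04), yet it read 0.22 with HFD in Cy5 and -1.35 with HFD in Cy3. HPX, hemopexin, was not called at 0.07 ± 0.26 (adjusted p = 0.392), and read 0.58 in Cy5 and -0.44 in Cy3. HP and HPX probes are among the 30 bright ones named above. HEBP1, a haem-binding protein, rose by 0.34 ± 0.08.
CD163 fell while 6 of 10 macrophage markers rose, and the part of macrophage content in its ratio was not tested.

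Among genes of uptake and export, 2 of 9 rose and 2 fell, so that 44.4% were called against 60.3% of all genes. SLC11A1, the phagosomal metal transporter of macrophages, rose by 0.43 ± 0.16 (limma adjusted p = 4.26e-06). SLC39A14, a hepatocyte importer of iron not bound to transferrin, had a mean of -0.29 ± 0.11 and was below 0 in all animals. It read -0.49 with HFD in Cy5 and -0.09 with HFD in Cy3. LTF, lactotransferrin, was also lower (-0.32 ± 0.38, adjusted p = 0.0141), with 3 of 10 animals above 0. CP, the ferroxidase ceruloplasmin, was not called at -0.11 ± 0.33 (adjusted p = 0.321). Of 3 storage genes 1 was called (33.3%). It was PCBP1, a chaperone that brings iron to ferritin, which was lower (-0.28 ± 0.15).

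Of 22 genes of hepcidin control 6 rose and 8 fell, so that 63.6% were called against 60.3% of all genes. HFE, the haemochromatosis gene, rose by 0.26 ± 0.09 (limma adjusted p = 9.21e-06), and NEO1, a co-receptor partner of hemojuvelin, by 0.30 ± 0.08, each in 10 of 10 animals. HFE has 1 probe, while of 14 NEO1 probes 8 were higher and 2 lower, with a median of 0.12. The activin receptor genes ACVR1 (-0.57 ± 0.37) and ACVR2A (-0.52 ± 0.26) fell, with all 5 and all 3 of their probes lower. On the 14 arrays they were at -0.40 and -0.23, still called. ACVR2A read -0.22 with HFD in Cy5 and -0.82 with HFD in Cy3.

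All 3 genes of iron sensing were called, where 60.3% of all genes were. ACO1, the iron regulatory protein that doubles as aconitase, was lower (-0.24 ± 0.33, limma adjusted p = 0.0319). IREB2, the second such protein, was higher (0.14 ± 0.15), and so was FBXL5, which directs its degradation (0.19 ± 0.10). FBXL5 read 0.03 with HFD in Cy5 and 0.35 with HFD in Cy3, and 1 of 3 IREB2 probes was lower. On the 14 arrays ACO1 (-0.08) and IREB2 (0.05) were no longer called.

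Of 14 mitochondrial iron genes 2 rose and 6 fell (57.1% called). Of 9 genes of haem synthesis 3 rose and 4 fell (77.8% called), where 60.3% of all genes were called. CISD1 (-0.32 ± 0.13) and the cluster scaffold gene ISCU (-0.30 ± 0.28) were lower and the co-chaperone gene HSCB (0.24 ± 0.11) higher. ISCU was at -0.04 and not called on the 14 arrays (limma adjusted p = 0.425). FECH, which inserts iron into protoporphyrin, rose by 0.34 ± 0.10, and ALAD, the second enzyme of the pathway, by 0.22 ± 0.07. With HFD in Cy5 they read 0.11 and 0.06, and with HFD in Cy3 0.57 and 0.38. ALAS1, the rate-limiting enzyme, was not called (-0.23 ± 0.53, adjusted p = 0.176), and ran from -1.05 to 0.79.

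**Figure D5:**
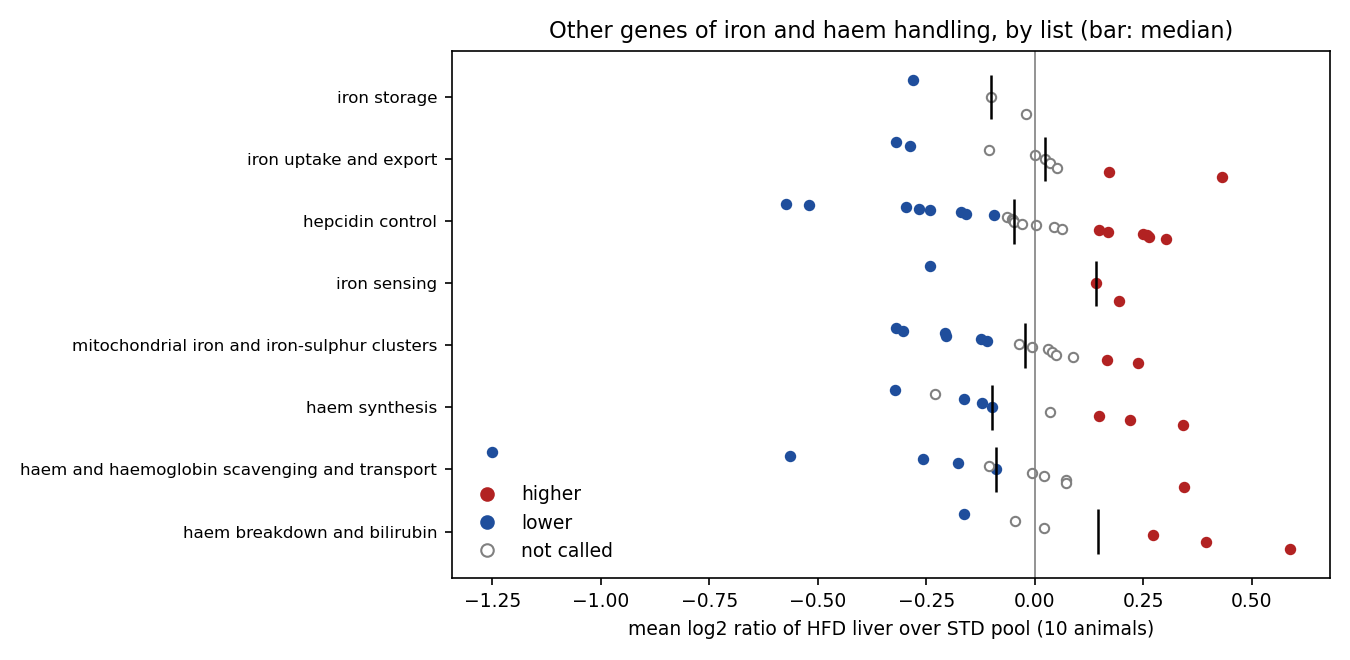
Mean log2 ratio of HFD liver over the STD pool (horizontal axis, 10 animals) of 77 other genes of iron and haem handling in 8 lists, with 1 point per gene, red for higher, blue for lower, open grey for not called, and a bar at the list's median. CD163 at -1.25 and UGT1A1 at 0.59 are the outermost points.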

How the data were processed

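Spot intensities in green and red were deposited as scanner tables made with Agilent Feature Extraction 10.7.3.1, per the file headers. Log2 ratios of the authors were deposited too, 1 column per animal, with unstated centring and scale. They served as an alternative, and limma is named in the submitters' processing notes. The labels' protocols state 100 ng of RNA for each labelling. Here limma 3.58.1 (R 4.3.3) was used for normexp background correction with an offset of 50, then for loess within arrays. Replicate spots were averaged per probe, each ratio was signed as HFD against pool from the array's name, and the 2 arrays of an animal were averaged, giving 10 replicates numbered as in the labels. Probes well above background in either RNA on at least 10 of 20 arrays were kept, which left 61688 named probes and 13827 genes. No spot was saturated. The number of arrays limits the precision.

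Mean ratios were tested against 0 with lmFit and eBayes, two-sided, with Benjamini-Hochberg adjustment over all genes (or all probes) and a threshold of 0.05. The Cy5 minus Cy3 difference per animal was tested likewise. The test was tried on simulated ratios. Named are all members, the called pathway genes with the largest absolute mean ratio of each list (up to 3), a set of key genes called or not (HMOX1, FTL, HFE, CP, HPX, HP, CD163 and ALAS1), and the 3 genes nearest to STEAP4. The members and lists were chosen with earlier results of these data known. Alternatives were other background corrections, normalisations, filters, probe choices, dye orientations, array sets, blocks, scan sessions and leaving out each animal. Frames, motifs and shared stretches of at least 18 bases were found by exact search of the probe sequences in the scanner tables. The result of 1 pathway gene that this rule names is not reported here.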

Additional observations from a re-analysis of the deposited data

Results flagged for a closer look

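Of 36 genes checked for an animal lying far from the other 9, 3 had one, where chance gives about 1 in 20. HFE was at 0.50 in animal 1, with the next value at 0.28. ALAD was at 0.38 in animal 6, with the next at 0.25. HMOX1 was at -0.28 in animal 5, the only animal below 0, with the next lowest at 0.15. None of the 9 genes of the set had such an animal.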

How the results depend on the processing

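The calls of FTH1 (0.25 to 1.07), STEAP4 (0.97 to 1.81), BLVRA (0.45 to 0.86), BLVRB (-0.22 to -0.14) and SLC40A1 (-0.77 to -0.24) kept their direction and significance in all 25 alternatives, and the count of higher members stayed at 3. The 5 lower members became 3 with median centring, with HFD in Cy3 only and in scan session 3, and 2 on the 14 arrays and in scan session 1. Leaving out each animal gave 3 to 5 of them, and 19 to 21 higher and 26 to 30 lower pathway genes. It also gave 3 to 6 members with a dye difference (3 without animal 3), with FTH1 counted and as a description only. Lower pathway genes numbered 17 in scan session 3. TF and TFRC turned to 0.048 and 0.056 in the fit on the 14 arrays, not called. TF lost its call in 6 of the fits without 1 animal (adjusted p up to 0.0865) and TFRC in 6 (up to 0.101). TFR2, never called, changed sign with the mean of all probes (-0.034), with HFD in Cy5 only (-0.047) and ran from -0.0018 to 0.015 when animals were left out. STEAP3 lost its call in 4 settings. The causes were not tested. Slides gave a consensus correlation of -0.11. HFD animals could not be paired with STD animals because the labels give 1 group of animals, measured against a pool.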
